A study of Haemulon flavolineatum and Haemulon macrostomum and Haemulon carbonarium with 36 samples.

Results

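The IMAP GTPases, also called GIMAPs or GTPases of immunity-associated proteins, were followed here in the liver together with CD48, NLRC3 and an MHC class I antigen. The unit of counting is the isogroup, a cluster of isoforms in the assembled transcriptome. There were 17 members of 58532 isogroups in all. Of these, 5 were fixed by identifier, namely GTPase IMAP family member 8 (isogroup2408), GTPase IMAP family member 4 (isogroup2126), CD48 antigen (isogroup534), protein NLRC3 (isogroup9673) and MHC class I antigen (isogroup2721). The rest were all other isogroups that carry the name GTPase IMAP family member in the study's list of genes that differed between species, which brought the IMAP isogroups to 14. The members were thus chosen by measured values, the counts of these same fish compared between species, so a difference between species in a member is a description and carries no test.

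IMAP GTPases are small proteins that bind GTP and sit on the membranes of organelles. In mouse and human they are most abundant in lymphocytes, where several of them act on the survival of T and B cells, and their genes lie in a cluster. CD48 is a surface protein of mouse and human leukocytes that is bound by the receptor CD244, NLRC3 is a cytoplasmic protein known from mouse as a brake on T cell and innate signalling, and MHC class I presents peptides to cytotoxic T cells. The liver is mostly hepatocytes, with resident and passing leukocytes among them.

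Livers of 36 wild grunts of the genus *Haemulon*, caught on Caribbean reefs, gave 1 TagSeq library each, from 8 *H. carbonarium*, 17 *H. flavolineatum* and 11 *H. macrostomum*. The study asked how liver expression differs between species that live side by side, and no fish was treated. By the study's account most *H. macrostomum* came from more exposed outer reefs than the other species, so the place of capture and the species cannot be told apart. The labels give neither age nor sex, and species is the only group. In TagSeq each messenger RNA yields a tag close to its 3′ end, so a count does not grow with transcript length and no length correction was made.

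Total counts per fish ran from 578011 to 3252882. Levels are given in CPM, counts scaled to a common library total by TMM, which evens out differences in library composition, as mean ± SD. Log2 fold changes are positive where the species named before "against" has more. The SE beside each is its absolute value divided by the square root of the F statistic of its test. Reads of all fish were mapped to the *H. macrostomum* transcriptome with up to 5 matches per read, so reads can be shared between isogroups of a common name, and a low count in another species can come from sequence difference. The hepatocyte list (26 isogroups such as fibrinogen and apolipoprotein A-I) summed to 22790 to 40270 CPM per fish in *H. carbonarium*. It summed to 7500 to 29570 in *H. flavolineatum* and 22180 to 42990 in *H. macrostomum*. Most of it was apolipoprotein A-I (isogroup2202), with means of 30160, 18010 and 30700 CPM in the same order. That name comes from the study's list of genes that differed, so its difference between species is a description. No hemoglobin is among the names used here, so blood was not measured. The study itself lists the term hemoglobin complex as enriched in its comparisons of *H. macrostomum* with both other species, under opposite headings. It stands under down-regulated genes in the comparison of *H. carbonarium* with *H. macrostomum*. In that of *H. flavolineatum* with *H. macrostomum* it stands under up-regulated genes. In 6 *H. flavolineatum* the egg yolk precursor vitellogenin was high (32760 to 70270 CPM, against 11.2 to 1620 in the other 11), and these fish were left out in an alternative below.

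The 14 IMAP isogroups together were about as abundant in *H. flavolineatum* as in *H. macrostomum*, and lower on average in *H. carbonarium*. Their sum ran from 114.7 to 322.8 CPM in *H. carbonarium* (median 170.6), from 169.1 to 604.5 in *H. flavolineatum* (median 279.0) and from 219.9 to 395.9 in *H. macrostomum* (median 305.6). The 3 ranges overlapped, and *H. flavolineatum* fish 7 stood highest of all 36 fish. The sum holds only isogroups from the study's list of genes that differed, so it is not the level of the whole family. In bulk liver, fewer cells of a type and less RNA per cell cannot be told apart.

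The species differed in which isogroups made up that sum. These isogroups were chosen from a list of differences between species, so a different make-up was built in and is a description. The part that shared reads or sequence difference take in the shares was not tested. In *H. macrostomum*, IMAP 4 (isogroup2126) held 48.3% ± 4.75 of it (SD, n = 11) and IMAP 4 (isogroup7390) 38.9% ± 5.97. In *H. flavolineatum* the order of the pair was turned round, with 42.8% ± 8.13 for isogroup7390 and 22.2% ± 4.06 for isogroup2126 (SD, n = 17). In *H. carbonarium*, isogroup2126 held the largest share, 31.8% ± 6.46, and isogroup7390 held 13.8% ± 11.1 (SD, n = 8). IMAP 8 (isogroup2408) held 18.8% ± 5.32 there, a share that was 6.25% ± 2.39 in *H. flavolineatum* and 4.06% ± 1.41 in *H. macrostomum*.

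**Figure D1:**
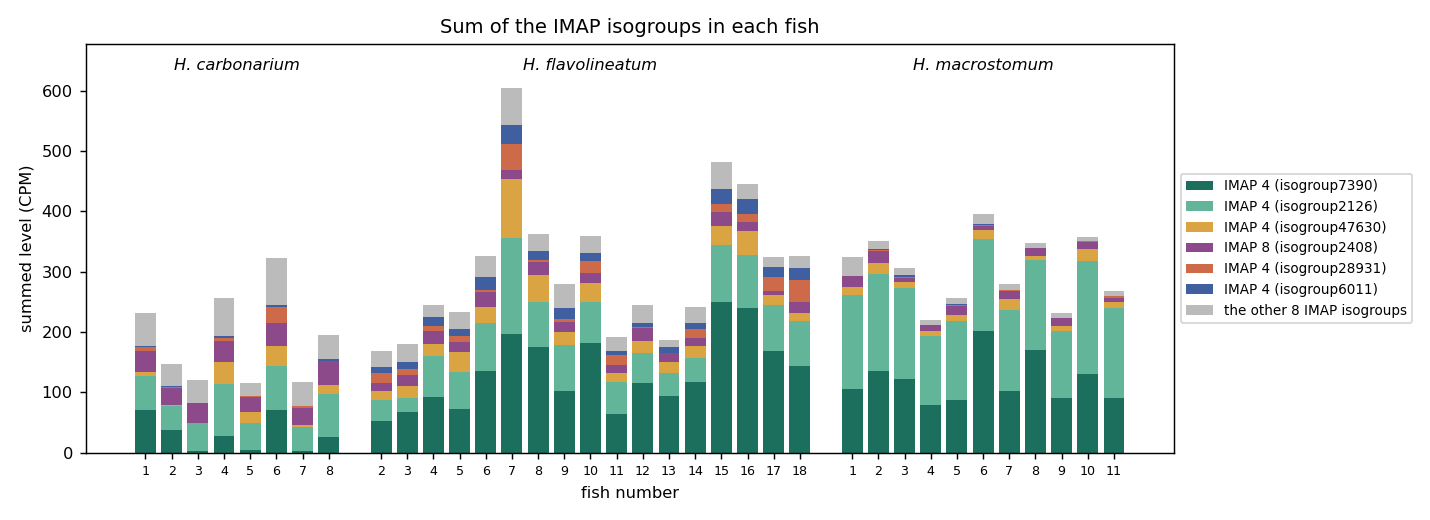
Summed level of the 14 IMAP isogroups in CPM (vertical axis) for each fish by number (horizontal axis), with the isogroups stacked by color. The isogroup7390 and isogroup2126 segments fill most of the *H. flavolineatum* and *H. macrostomum* bars, isogroup2408 takes a wide segment in *H. carbonarium*, and *H. flavolineatum* fish 7 reaches 604.5 CPM.

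Of the 9 isogroups named IMAP family member 4, isogroup7390 had the highest level in *H. flavolineatum*, and isogroup2126 in the other two species. In mouse, member 4 is a protein of T cells that speeds their death by apoptosis. Isogroup7390 ran from 2.54 to 71.3 CPM in *H. carbonarium* (median 26.9), from 51.7 to 249.3 in *H. flavolineatum* (median 116.3) and from 79.2 to 202.0 in *H. macrostomum* (median 104.9). The level in *H. carbonarium* lay below every *H. macrostomum*, and 3 of its 8 fish were under 4 CPM, while its 2 highest fish reached into the range of *H. flavolineatum*. The fitted log2 fold change was -2.16 (SE 0.43) for *H. carbonarium* against *H. flavolineatum*, -2.01 (SE 0.44) against *H. macrostomum* and 0.15 (SE 0.34) for *H. flavolineatum* against *H. macrostomum*.

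Isogroup2126 was higher in *H. macrostomum* than in both other species. Its values were 39.6 to 86.7 CPM in *H. carbonarium* (median 51.1), 23.5 to 159.7 in *H. flavolineatum* (median 68.9) and 110.3 to 188.0 in *H. macrostomum* (median 149.2). *H. carbonarium* did not overlap with *H. macrostomum*, and *H. flavolineatum* did so through fish 7 alone. The level in *H. macrostomum* was 2.54-fold that of *H. carbonarium* (log2 fold change -1.35, SE 0.25) and 2.12-fold that of *H. flavolineatum* (-1.08, SE 0.20), whereas *H. carbonarium* and *H. flavolineatum*, neighbours in the order of levels, differed by -0.26 (SE 0.23).

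The largest fitted difference among the members belonged to isogroup6011, also named IMAP 4. It had 0 to 4.51 CPM in *H. carbonarium* (median 1.64), 7.23 to 32.4 in *H. flavolineatum* (median 14.3) and 0 to 2.79 in *H. macrostomum* (median 0.512). Every *H. flavolineatum* was above every fish of both other species. The level in *H. flavolineatum* was 20.4-fold that in *H. macrostomum* (log2 fold change 4.35, SE 0.43). The 11 *H. macrostomum* had 14 counts together, against 442 in the 17 *H. flavolineatum*. The part that reads shared with other isogroups take in this difference was not tested.

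IMAP 8 (isogroup2408) ran the other way from isogroup7390, being higher in *H. carbonarium*. This isogroup is named member 8 in the list the members were taken from and member 4 in the UniProt annotation, so its place in the family is not settled by name. *H. carbonarium* had 25.1 to 39.3 CPM (median 32.8), *H. flavolineatum* 7.21 to 24.3 (median 16.2) and *H. macrostomum* 6.15 to 20.1 (median 12.3). All 8 *H. carbonarium* lay above all other fish, at 1.88 times the level of *H. flavolineatum* (log2 fold change 0.91, SE 0.18) and 2.70 times that of *H. macrostomum* (1.43, SE 0.20), and spread little among themselves. *H. flavolineatum* and *H. macrostomum* overlapped, with a log2 fold change of 0.52 (SE 0.18).

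The other IMAP isogroups with enough counts for the fit were mostly lower in *H. macrostomum*. IMAP 4 (isogroup47630) ran from 1.02 to 36.5 CPM in *H. carbonarium* (median 11.5), from 13.98 to 97.8 in *H. flavolineatum* (median 20.25) and from 7.57 to 20.1 in *H. macrostomum* (median 10.75), with fish 7 of *H. flavolineatum* at the top. Isogroup28931 was at 13.97 ± 11.7 CPM in *H. flavolineatum*, 5.72 ± 8.80 in *H. carbonarium* and 1.22 ± 0.879 in *H. macrostomum*. All 3 species overlapped in both of these isogroups.

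Isogroup25178 was the only IMAP 4 isogroup past the threshold given below with more in *H. carbonarium* than *H. flavolineatum*. Levels of 11.8 ± 8.65 CPM in *H. carbonarium*, 2.43 ± 3.13 in *H. macrostomum* and 4.11 ± 2.25 in *H. flavolineatum* gave log2 fold changes of 2.28 (SE 0.45) and 1.59 (SE 0.39) for *H. carbonarium* against each in turn. Isogroup45213 (IMAP 4) was at 7.75 ± 3.23, 5.40 ± 3.93 and 1.52 ± 1.19 CPM in *H. carbonarium*, *H. flavolineatum* and *H. macrostomum*, isogroup8339 (IMAP 4) at 6.24 ± 7.58, 5.94 ± 7.20 and 1.33 ± 1.34, and isogroup42260 (IMAP 8) at 4.24 ± 3.13, 8.29 ± 6.62 and 2.17 ± 2.20. These 3 isogroups shared the lowest mean in *H. macrostomum*, and their ranges overlapped between all species.

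**Figure D2:**
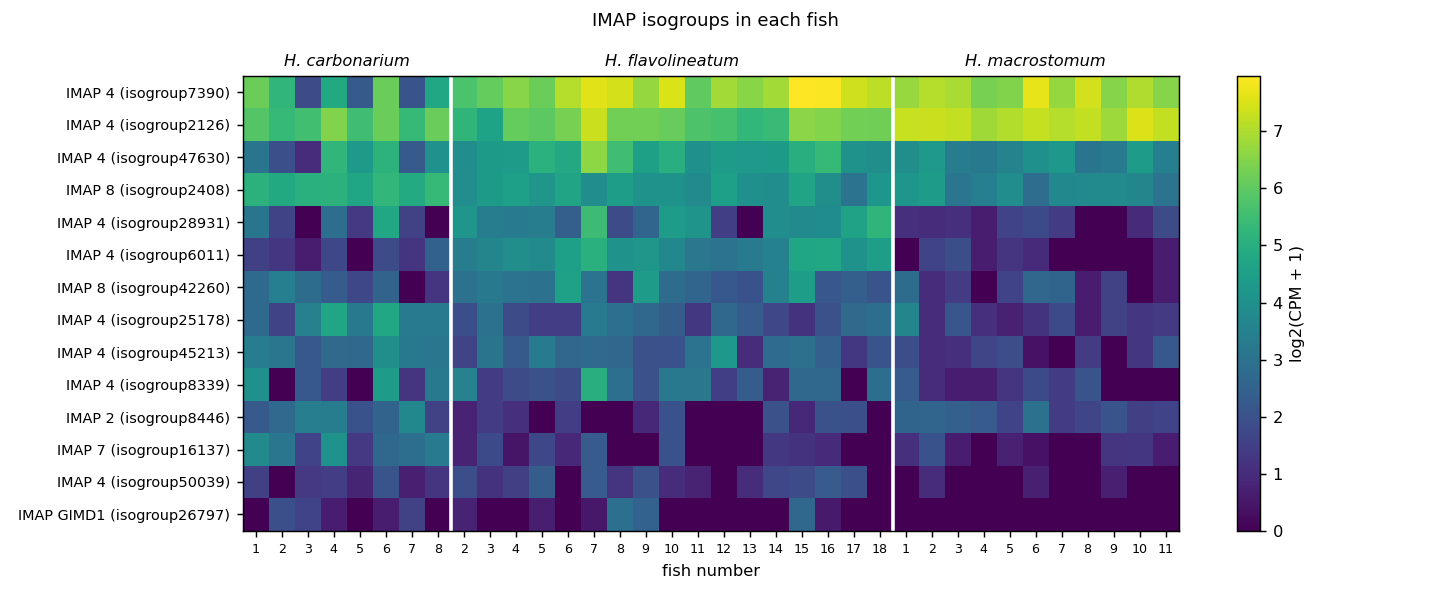
Level of each of the 14 IMAP isogroups (rows, from the highest to the lowest mean) in each of the 36 fish (columns, by fish number within species), as color on a log2(CPM + 1) scale. Isogroup6011 is bright in *H. flavolineatum* only, isogroup7390 is dark in 3 *H. carbonarium*, and the lowest rows are near 0 in most fish.

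The remaining 4 IMAP isogroups fell under the count filter and are given by their counts, with ratios of counts per scaled total and exact 95% intervals that cover counting error only. IMAP 7 (isogroup16137), in human an activator of the GTPase activity of GIMAP2, had 86 counts in *H. carbonarium*, 14 in *H. macrostomum* and 32 in *H. flavolineatum*, a ratio of 5.81 (3.83 to 9.01) to *H. flavolineatum* and 10.2 (5.75 to 19.4) to *H. macrostomum*. IMAP 2 (isogroup8446), in human a protein of lipid droplets, had 80, 74 and 29 counts in the same order, and was 5.96 times as high in *H. carbonarium* as in *H. flavolineatum* (3.85 to 9.46). Both had counts in all 8 *H. carbonarium*, but in 10 of 17 *H. flavolineatum*.

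IMAP 4 (isogroup50039) had 58 counts in *H. flavolineatum*, 17 in *H. carbonarium* and 4 in *H. macrostomum*. The isogroup named GIMD1 (isogroup26797) had 33, 13 and 0 counts. With a floor of 3 counts in place of the 0 in *H. macrostomum*, the ratio was 7.19 for *H. carbonarium* and 8.44 for *H. flavolineatum*. These ratios carry no interval and are not lower bounds. The 33 counts of this isogroup came from 7 of the 17 *H. flavolineatum*.

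CD48 antigen (isogroup534) was higher in *H. macrostomum* than in both other species. The level was 3.55 to 19.1 CPM in *H. carbonarium* (median 10.4), 2.10 to 18.2 in *H. flavolineatum* (median 9.32) and 25.3 to 65.4 in *H. macrostomum* (median 47.7). All 11 *H. macrostomum* lay above all other fish, with log2 fold changes of -2.0 (SE 0.34) for *H. carbonarium* and -2.28 (SE 0.26) for *H. flavolineatum* against it. *H. carbonarium* and *H. flavolineatum* differed by 0.28 (SE 0.31).

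A second isogroup of the same name, isogroup3357, was far more abundant and also had its highest mean in *H. macrostomum*. Its level was 681.3 ± 177.6 CPM in *H. macrostomum*, 294.0 ± 208.1 in *H. flavolineatum* and 273.6 ± 135.9 in *H. carbonarium*, and its ranges overlapped. The third, isogroup12720, had 69, 27 and 16 counts in the same order. Both were named by the study's list of genes that differed, so their differences between species are a description too. Summed over the 3, CD48 was at 729.8 ± 179.9, 304.3 ± 210.1 and 286.3 ± 136.7 CPM.

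NLRC3 (isogroup9673) was also higher on average in *H. macrostomum*, with wide overlap. Values ran from 1.52 to 16.8 CPM in *H. carbonarium* (median 9.07), from 2.62 to 17.1 in *H. flavolineatum* (median 9.04) and from 6.55 to 50.7 in *H. macrostomum* (median 21.5). The log2 fold change was -1.42 (SE 0.36) for *H. carbonarium* and -1.22 (SE 0.29) for *H. flavolineatum* against *H. macrostomum*, and -0.20 (SE 0.34) between the former pair.

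Of the 7 isogroups named NLRC3 in the same list, the others were low and did not share 1 order of species. Isogroup7224 was at 5.24 ± 1.79 CPM in *H. macrostomum* and 0.527 ± 0.748 in *H. flavolineatum*, while isogroup78593 was at 6.57 ± 6.38 in *H. carbonarium* and 0.889 ± 0.922 in *H. macrostomum*. The remaining 4 had means of at most 2.64 CPM in each species. The sum over the 7 was 35.4 ± 11.5 CPM in *H. macrostomum*, 16.96 ± 5.27 in *H. flavolineatum* and 20.2 ± 8.28 in *H. carbonarium*.

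MHC class I antigen (isogroup2721) varied widely among fish of the same species. *H. carbonarium* ran from 0 to 28.0 CPM (median 6.81), *H. flavolineatum* from 0.492 to 44.0 (median 5.74) and *H. macrostomum* from 0 to 4.93 (median 1.28). No count was found in 2 of 8 *H. carbonarium* and 5 of 11 *H. macrostomum*, although some fish of *H. carbonarium* had up to 49, and all species overlapped. The level in *H. macrostomum* was the lowest, by a log2 fold change of 2.70 (SE 0.77) from *H. carbonarium* and 2.49 (SE 0.70) from *H. flavolineatum*. The former difference passed the threshold over all fish but not without the 6 fish with high vitellogenin, and not with DESeq2. Neither difference passed with the fish number as a block, although the numbers do not pair the fish. In a fit of only the 2 species compared, the isogroup fell under the count filter in both comparisons. Isogroups named MHC class I by annotation alone had means of at most 1.145 CPM in each species, and did not share an order of species.

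**Figure D3:**
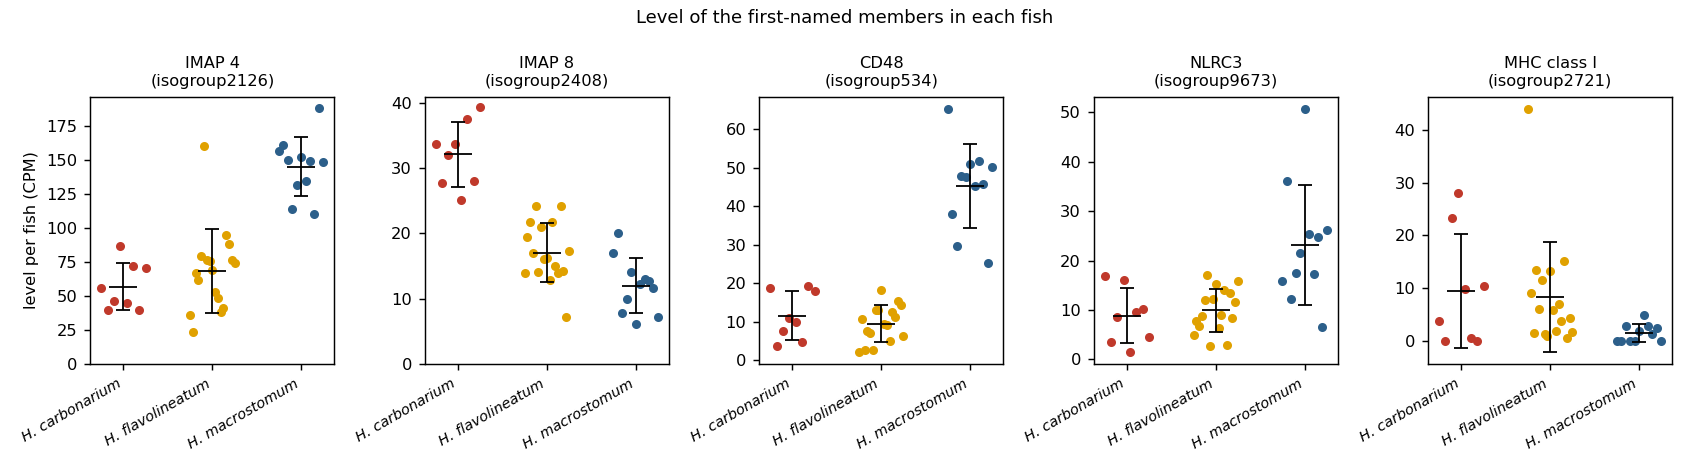
Level in CPM (vertical axis, from 0) of IMAP 4 (isogroup2126), IMAP 8 (isogroup2408), CD48, NLRC3 and MHC class I in each fish (points) of the 3 species, with mean and SD (black). CD48 is separate in *H. macrostomum* (25.3 to 65.4 CPM), IMAP 8 is separate in *H. carbonarium* (25.1 to 39.3 CPM), and MHC class I reaches 0 in 2 of the species.

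Set side by side, the 13 members with enough counts moved in both directions. A single edgeR quasi-likelihood fit covered 8598 isogroups and all 36 fish, and an isogroup counted as different at an adjusted p under 0.01. Between *H. carbonarium* and *H. flavolineatum*, 4 of the 13 passed, 2 higher and 2 lower in *H. carbonarium*. Over all tested isogroups 14.4% passed, 7.85% higher and 6.55% lower. Between *H. carbonarium* and *H. macrostomum*, 8 passed, 4 in each direction, beside 13.5% of all, with 6.08% higher and 7.41% lower. Between *H. flavolineatum* and *H. macrostomum*, 10 passed, of which 7 were higher and 3 lower in *H. flavolineatum*, beside 26.0% of all, with 11.6% higher and 14.4% lower. Nothing is read from these counts, because the members were taken from a list of such differences, and a low member that passed the count filter could do so through the species where it is high.

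The median log2 fold change of the 13 was -0.20, 1.28 and 1.16 in the same 3 comparisons, beside -0.05, 0.00 and 0.04 over all tested isogroups. Levels did not overlap between the species for 2 members in *H. carbonarium* against *H. flavolineatum* (isogroup2408 and isogroup6011), beside 2.4% of all tested isogroups. The same held for 4 members in *H. carbonarium* against *H. macrostomum* (isogroup2126, isogroup2408, isogroup534 and isogroup7390), beside 3.57%. In *H. flavolineatum* against *H. macrostomum* it held for isogroup534 and isogroup6011, beside 3.52%. The comparisons share fish, so they are not independent of each other. As with the calls, nothing is read from these medians or counts, because the members were taken from a list of differences.

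**Figure D4:**
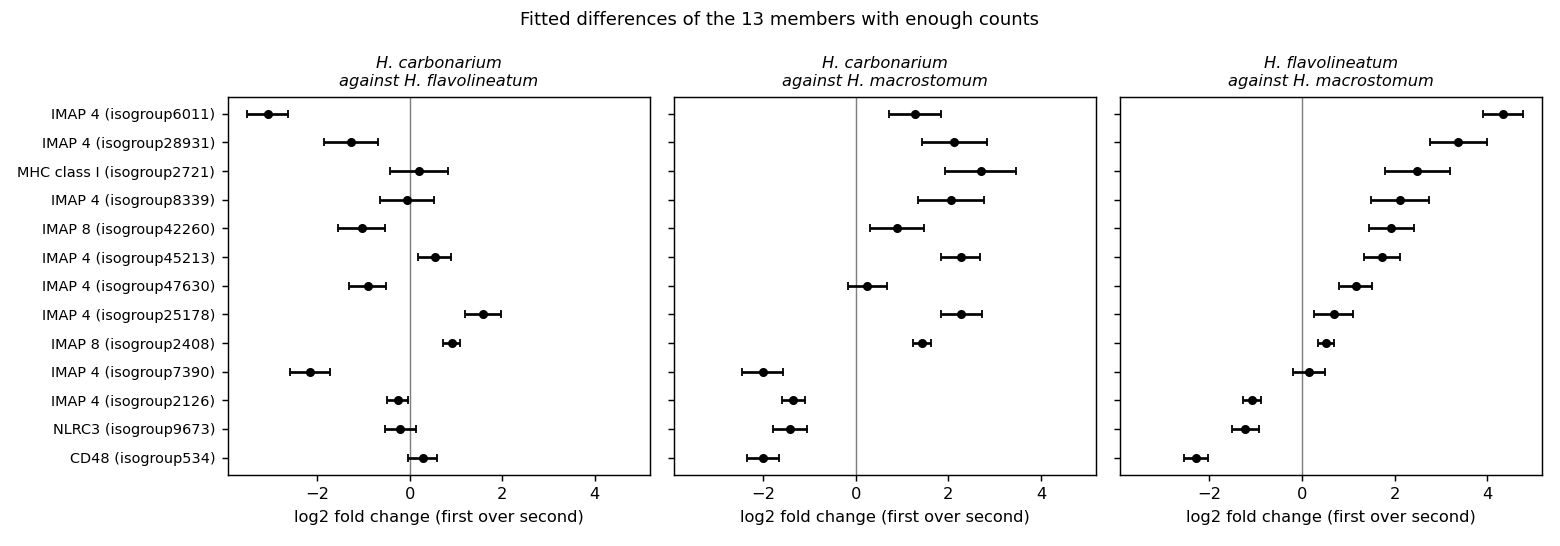
Fitted log2 fold change (points) with its standard error (bars) for the 13 members with enough counts, in each of the 3 comparisons of species, where values above 0 mean more in the species of the upper title line. Isogroup6011 lies farthest to the right in *H. flavolineatum* against *H. macrostomum* (4.35), and CD48 farthest to the left (-2.28).

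Without the 6 *H. flavolineatum* with high vitellogenin, the log2 fold changes of these members stayed close to those over all fish. For isogroup6011 against *H. macrostomum* the value was 4.52 (SE 0.46), and for isogroup2126 it was -0.90 (SE 0.19). Levels of isogroup2126 were 23.5 to 74.2 CPM in the 6 fish and 36.3 to 159.7 in the other 11.

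Markers of the cells that carry these proteins in mammals did not move as 1 group. Those of T cells were low on average in all species, apart from granzyme in *H. flavolineatum*. In the T cell, B cell and leukocyte lists, the isogroups with most counts come from the same list of differences as the members. Their differences between species are thus a description. The T cell list (6 isogroups) summed to 1.81 to 59.5 CPM in *H. flavolineatum*, 0 to 5.60 in *H. carbonarium* and 0 to 2.20 in *H. macrostomum*. For *H. flavolineatum* most of this sum was granzyme (isogroup10875), a killer cell protease with a mean of 9.77 ± 13.4 CPM. For *H. carbonarium* the T cell glycoprotein CD4-2 (isogroup69161) had the highest mean of the list, 1.69 ± 1.36. The same isogroup had a mean of 2.22 ± 1.97 for *H. flavolineatum* and 0.303 ± 0.363 for *H. macrostomum*. CD3 epsilon, part of the T cell receptor complex, had 1 count in all fish together. CD3 epsilon was thus not detectable as a difference at this depth.

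The B cell list (6 isogroups) summed to 3.16 to 122.5 CPM in *H. flavolineatum*, 18.2 to 124.3 in *H. carbonarium* and 3.78 to 201.7 in *H. macrostomum*, nearly all of it the membrane form of the Ig mu chain (isogroup7173). The leukocyte list (4 isogroups) summed to 2.87 to 10.1, 1.42 to 18.3 and 9.73 to 40.3 CPM in the same order. Its pan-leukocyte phosphatase CD45 (isogroup66963) was at 1.29 ± 1.04 CPM in *H. flavolineatum*, 5.32 ± 4.46 in *H. carbonarium* and 1.47 ± 1.04 in *H. macrostomum*. Coronin (isogroup14363) was at 4.24 ± 1.495, 1.51 ± 1.30 and 14.03 ± 9.02 in the same order. Its name does not say which coronin it is, so its place among leukocyte markers is not settled. The macrophage list had 1 isogroup, with 3 counts in all fish. These markers differ in the order of the species, and their part in the levels of the members was not tested.

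Isogroups that took their name from the annotation alone are absent from the study's list of genes that differed in these same fish, so they too were set apart by the outcome and are given as a description. Of 34 such isogroups in the immune lists, 1 had enough counts, the MHC class II gamma chain (isogroup1715), also known as CD74 or the invariant chain, which guides class II molecules to the compartment where they take up peptides. It ran from 83.6 to 214.6 CPM in *H. carbonarium* (median 154.7), from 28.9 to 151.0 in *H. flavolineatum* (median 87.6) and from 61.8 to 162.4 in *H. macrostomum* (median 96.3). The ranges overlapped, and the mean of *H. carbonarium* was 1.83-fold that of *H. flavolineatum* (log2 fold change 0.87, SE 0.24). The difference passed the threshold over all fish, but not without the 6 fish with high vitellogenin, with no count filter or with the fish number as a block. Against *H. macrostomum* the log2 fold change was 0.61 (SE 0.26) for *H. carbonarium* and -0.26 (SE 0.22) for *H. flavolineatum*.

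The other 33 had means of at most 1.95 CPM over all fish. Among them were the 5 isogroups named as IMAP GTPases by annotation alone. Isogroup15939 (IMAP 4) was at 2.02 ± 2.17 CPM in *H. flavolineatum*, 2.89 ± 1.93 in *H. carbonarium* and 1.15 ± 1.22 in *H. macrostomum*, and isogroup9545 (IMAP 4) had 5, 12 and 24 counts. Isogroup45948 (IMAP 4) had 5 counts and isogroup72525 (IMAP 7) had 1 in all fish. Isogroup6279 had 27, 12 and 27 counts and is named an IMAP GTPase by 1 annotation and poly [ADP-ribose] polymerase 9 by the other.

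How pairs of members vary together among fish of 1 species was not used to choose them, so it could be tested whether the members rise and fall together. The spread of each member within species did enter the choice, because a call of difference between species depends on it. By the study's account, its likelihood ratio test also left out genes that differed within species. The part that this choice takes in the correlations was not tested. Pearson's r of log2(CPM + 1) was computed within each species, with permutation p-values (exact for the 8 *H. carbonarium*) adjusted by Benjamini-Hochberg and called under 0.05. Among the 5 members fixed by identifier, none of 30 pairs was called, with a lowest adjusted permutation p of 0.766, 1 pair at an unadjusted p under 0.05, and 0 calls by Spearman's rho. That pair was IMAP 4 (isogroup2126) and IMAP 8 (isogroup2408) in *H. carbonarium*, at r = 0.79 and rho = 0.81 (n = 8, unadjusted exact permutation p = 0.0255 and 0.0218). It was at r = -0.01 in *H. flavolineatum* and 0.04 in *H. macrostomum*. CD48 and isogroup2126, both highest in *H. macrostomum*, were at r = -0.41 among its 11 fish (adjusted permutation p = 0.922).

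Among the 10 IMAP isogroups with enough counts, a family of 135 pairs that was added after the data had been seen, 2 pairs were called, both in *H. flavolineatum* and both with isogroup2126. It went with isogroup6011 at r = 0.81 and rho = 0.89 (n = 17, unadjusted permutation p = 8e-05 and 1e-05, the latter the smallest that the resamples can give, adjusted p = 0.0108 and 0.00135). Its pair with isogroup7390 had r = 0.74 and rho = 0.82 (unadjusted permutation p = 0.00062 and 0.00012, adjusted p = 0.0418 and 0.00810). Without the 2 fish farthest from the median of isogroup2126, r was 0.87 and 0.73. Without fish 7, the fish with the highest IMAP sum, r was 0.74 for each pair and the adjusted permutation p 0.0661, so that no pair was called. Since such isogroups can share reads, the part that shared reads take in this covariation was not tested.

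Over the 45 pairs in each species, r was positive in 41 for *H. carbonarium* (median 0.43), in 33 for *H. flavolineatum* (median 0.13) and in 33 for *H. macrostomum* (median 0.10). The pairs reuse the same isogroups and fish, so they are not independent. No share over all tested isogroups was computed beside them, and nothing is read from these counts. The 7 pairs of *H. carbonarium* at an unadjusted p under 0.05 reached r = 0.86 for isogroup2408 with isogroup8339 (n = 8, exact permutation p = 0.00853, adjusted p = 0.174). In *H. macrostomum*, isogroup2126 was at r = 0.61 with isogroup47630 (n = 11, permutation p = 0.0496, adjusted p = 0.408), 0.59 with isogroup7390 and 0.08 with isogroup6011, which had counts in 6 of its fish.

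**Figure D5:**
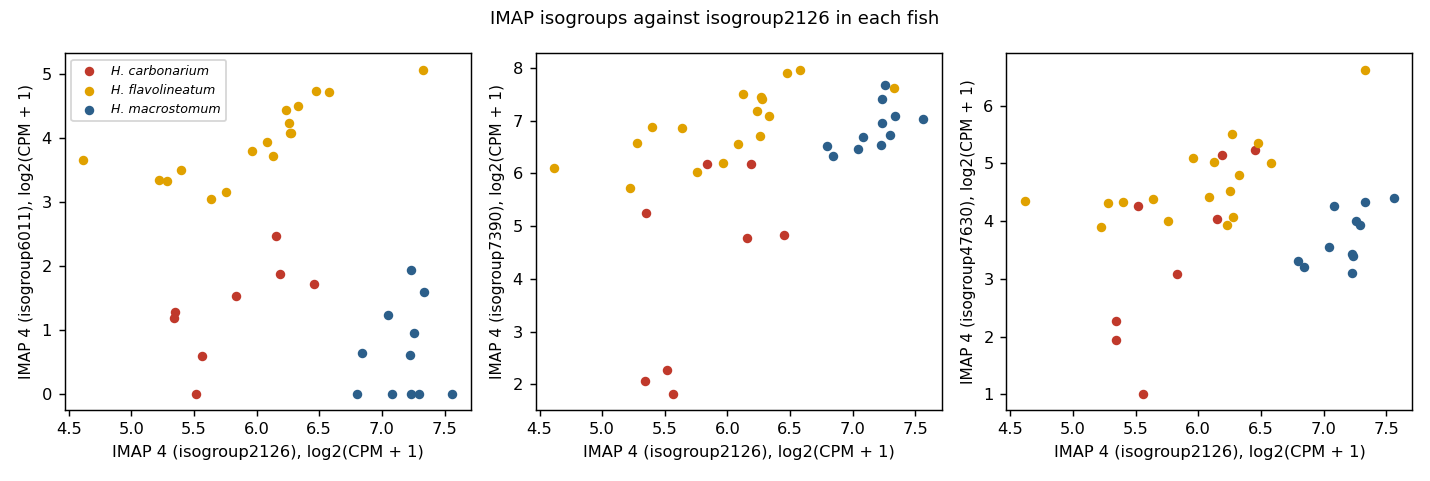
IMAP 4 (isogroup2126, horizontal axis) against isogroup6011, isogroup7390 and isogroup47630 (vertical axes), all as log2(CPM + 1), with each fish a point colored by species. In *H. flavolineatum* the points climb together with isogroup6011 (r = 0.81) and isogroup7390 (r = 0.74), and fish 7 lies at the right end.

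The isogroups with patterns most like each member were ranked among 1346 named isogroups by r of log2(CPM + 1) centered within species over all 36 fish, as a description with no test. Most of these names come from the same list of differences as the members. For isogroup2126 the closest were isogroup47630 (r = 0.61) and isogroup6011 (0.59), both IMAP 4, and Mx2 protein (isogroup1112, 0.59), which in mammals is induced by interferon. For isogroup2408 they were Ras association domain-containing protein 6 (0.62), M-phase phosphoprotein 8 (0.57) and unconventional prefoldin RPB5 interactor 1 (0.54), none of them an IMAP GTPase.

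For NLRC3 (isogroup9673) they were aminopeptidase N (0.57), LGP2 (0.55), a cytoplasmic sensor of viral RNA in mammals, and protein LYRIC (0.47). CD48 (isogroup534) was nearest to ribonuclease T2 (0.45), a multivitamin transporter (0.43) and osmotic stress transcription factor 1 (0.41). MHC class I (isogroup2721) was nearest to eukaryotic translation initiation factor 2 subunit 1 (0.53), an amino acid transporter (0.49) and NADH dehydrogenase 1 subunit c2 (0.48). All these fish share the same library scaling.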

How the data were processed

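Each of the 36 wild-caught livers was sequenced as a single TagSeq library, and the replicate is the fish. The authors deposited raw counts per isogroup, whole numbers without normalization. Per the methods of the study they used the FastX Tool Kit against low-quality reads and PCR duplicates, clipped adaptors, and mapped 50 bp single-end reads of every species to the *H. macrostomum* liver transcriptome with Bowtie2, up to 5 matches per read. Bowtie2 and DESeq2 are named in the submitters' processing notes without versions. Groups came from sample titles, and no count column was left unused. The methods name the tools but not how PCR duplicates were recognised, so counts may not be independent molecules. The intervals cover counting error only.

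Counts were analysed in R 4.3.3 with edgeR 4.0.16 (filterByExpr with species as groups, minimum count 10 and minimum total count 15, TMM, quasi-likelihood fit of species over all fish, Benjamini-Hochberg, adjusted p under 0.01). Tested isogroups held 96.6% of the counts. Correlations used scipy 1.17.1 on log2(CPM + 1), with all 40320 pairings for 8 fish and 100000 resamples otherwise. Scripts were tested on simulated data. Alternatives were DESeq2 1.42.0 without a filter, median-of-ratios and upper-quartile scaling, no filter, a mean count of 10, the fish number as a block, a fit of only the species compared, a threshold of 0.05, and *H. flavolineatum* without fish above 10000 CPM of vitellogenin.

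The members and lists were chosen with earlier results of these data known. Names came from the study's list of differing genes and from 2000 lines each of its UniProt and TrEMBL annotations. Named isogroups were every member, the same-name isogroups of CD48, NLRC3 and MHC class I above a mean of 5 CPM, annotation-named isogroups of the lists that passed, annotation-named IMAP isogroups, and the 3 nearest patterns of each member fixed by identifier. Sequences were not analysed here.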

Additional observations from a re-analysis of the deposited data

Results flagged for a closer look

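IMAP 4 (isogroup28931) stood apart in *H. carbonarium* fish 6, at 26.4 CPM, while the next fish of the species had 7.47. The gap was 0.717 of the range over the 8 fish, past the limit for a single far value. Members and their sums by name were examined this way in *H. carbonarium* alone, 22 values in all, since the other species have more than 10 fish. Chance marks about 1 in 20 where levels follow a normal distribution, which levels in CPM need not do. The sums contain the members, so the 22 are not independent. Fish 6 also had the highest IMAP sum of the species, at 322.8 CPM.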

How the results depend on the processing

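Isogroup6011, isogroup7390, isogroup2126 and CD48 (isogroup534) passed the threshold under every alternative in each comparison where they passed over all fish. Between *H. carbonarium* and *H. flavolineatum*, isogroup2408 did not pass with no count filter or with the block, nor did isogroup25178 with the block. Between *H. flavolineatum* and *H. macrostomum*, isogroup47630 did not pass with median-of-ratios scaling, a minimum mean count of 10 or the block. NLRC3 (isogroup9673) did not pass in that comparison with the block. It also did not between *H. carbonarium* and *H. macrostomum* with only the 2 species compared or the block. With only the 2 species compared, 4 members instead of 8 passed for *H. carbonarium* against *H. macrostomum* and 6 instead of 10 for *H. flavolineatum* against *H. macrostomum*, where 6 and 8 members were left after filtering. A minimum mean count of 10 left 9 members and gave 6 instead of 10 in the latter comparison. No share over all tested isogroups is given beside the counts under the alternatives, here or below, so nothing is read from them. No member reversed among those past the threshold.

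Fish numbers do not pair the fish: over 25 same-numbered pairs the correlation of deviations ran from -0.154 to 0.300 (median -0.0258), and 1 was above 0.1. Numbers 12 to 18 occur in *H. flavolineatum* alone, so under the block those fish carry no weight in a comparison. A call lost under the block can thus come from the fish and degrees of freedom that the block takes up. With the number as a replicate block, 2 members instead of 4 passed for *H. carbonarium* against *H. flavolineatum*, and the MHC class II gamma chain did not, which made 0 annotation-named isogroups instead of 1. The count was also 0 with no count filter and without the 6 fish with high vitellogenin.

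For *H. carbonarium* against *H. macrostomum*, 1 annotation-named isogroup instead of 0 passed with DESeq2 and with no count filter. It was isogroup20432, an NLR protein with 1 count in *H. carbonarium* and 53 in *H. macrostomum*. With no count filter 1 instead of 0 passed for *H. flavolineatum* against *H. macrostomum*, the IMAP 4 isogroup9545 with 5 and 24 counts. Both were chosen after their values were seen.

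Correlations among the IMAP isogroups gave 6 called pairs instead of 2 on total counts without scaling factors and 0 without *H. flavolineatum* replicate 7. The cause of these changes was not tested, apart from the smaller number of members left by a stricter filter. Depth limited the 4 members and 33 annotation-named isogroups under the filter. With no count filter in edgeR all 4 of these members passed in 1 or more comparisons, and with DESeq2 isogroup16137, isogroup8446 and isogroup50039 did.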
